A study of Mus musculus with 2 samples.

Results

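Wells of a heart muscle cell study that carried a left atrium (LA) or right atrium (RA) label fell into a group with little cellular RNA and a group with much of it, and these groups were set against each other. The members were chosen by measured values, their gene UMI total (unique molecular identifiers, counts of single captured RNA molecules) and their number of detected genes. RNA-poor wells held at least 1000 and fewer than 5000 gene UMIs and at least 500 genes, and RNA-rich wells held at least 20000 gene UMIs. ERCC spike-in RNA, a set of synthetic control RNAs, was left out of these totals. Of the 140 wells labelled LA or RA, 46 were RNA-poor (20 LA and 26 RA) and 33 were RNA-rich (24 LA and 9 RA), out of 332 labelled wells of all chambers. Of the others, 19 held fewer than 1000 UMIs, 21 held 1000 to under 5000 UMIs but fewer than 500 genes, and 21 lay between the groups. Both groups came from adult C57BL/6 wild-type mice of about 3 months, without ethanol fixation. Hearts came from animals not given heparin and were perfused with collagenase and protease for 9 minutes, and cells were sorted with a large-particle cytometer into 96-well plates. RNA was counted with SCRB-seq, a plate method that tags the 3′ ends of polyadenylated RNA. The protocol names the ventricle as the tissue that was minced, and describes no separate step for the atria.

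A heart muscle cell (cardiomyocyte) is packed with sarcomeres, the contractile units, and with mitochondria, so that a well with an intact cell is dominated by RNA for contractile proteins and by mitochondrial transcripts. Red blood cells of adult mice have no nucleus. Young ones still hold RNA in which the globin transcripts, which encode the chains of haemoglobin, far outnumber all others. In single-cell work, a high mitochondrial share, nuclear-retained RNA and stress genes are measures often read for damaged cells, and globin is the usual sign of blood.

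The atrial label was checked first, because the markers go against it. Nppa, the atrial natriuretic peptide gene, gave no UMI in either group, where the floor of 3 counts is 32.9 CPM (counts per 1000000 nuclear-encoded UMIs) in the RNA-poor pool and 2.58 CPM in the RNA-rich pool. Sln (sarcolipin) gave 2 UMIs in RNA-poor and 5 in RNA-rich wells, and Myl4, the atrial essential light chain, gave 0 UMIs in RNA-poor and 2 in RNA-rich wells. Myl7, the atrial regulatory light chain, gave 5 UMIs in RNA-poor and 74 in RNA-rich wells, and 1 RNA-rich well held 85.1% of the RNA-rich UMIs of Myl7. Nr2f1 gave none, Nr2f2 (a transcription factor of atrial identity) 5 UMIs in RNA-poor and 6 in RNA-rich wells, Tbx5 0 UMIs in RNA-poor and 8 in RNA-rich wells, Dkk3 0 UMIs in RNA-poor and 6 in RNA-rich wells, Stard10 5 UMIs in RNA-poor and 62 in RNA-rich wells and Kcnj3, a potassium channel subunit, 6 UMIs in RNA-poor and 80 in RNA-rich wells. The 10 atrial genes in the table took 0.0253% of the RNA-poor and 0.0209% of the RNA-rich pool. Myl2, the ventricular regulatory light chain, was found in 46 of 46 RNA-poor wells, with 4 to 31 UMIs and a median of 13, and in 33 of 33 RNA-rich wells, with 39 to 1505 UMIs and a median of 281. The wells are therefore called by their label and not by a chamber. In every library the ventricular-labelled wells filled plate rows 1 to 4 and the atrial-labelled wells rows 5 to 7, so plate row and label cannot be told apart. LA wells filled rows 5 and 6 and RA wells row 7 in libraries A and B, and the reverse held in C and D. Within a library the LA and RA labels are thus also tied to plate row.

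No animal is named for any well. Each group is thus a single pool of wells without biological replicates. No difference could be tested, and each interval printed is an exact 95% interval that covers counting error only. A gene is called higher or lower where its pooled CPM differed at least 2-fold. Libraries A, B, C and D gave 19, 11, 10 and 6 RNA-poor wells and 9, 15, 8 and 1 RNA-rich wells. The libraries used 84 cell barcodes, of which 80 occurred in all 4. The RNA-poor pool held 135897 gene UMIs and the RNA-rich pool 1805100. A pair of RNA-rich wells stood apart: an LA well of library B and an LA well of library C had 4.01% and 3.60% mitochondrial UMIs, 0.481% and 0.734% sarcomere UMIs and 1.06% and 1.05% mesothelial UMIs. These 2 wells held 9.08% of the RNA-rich UMIs. 1 RNA-poor RA well of library C had 0.662% mesothelial UMIs, and values without these 3 wells are given where they matter.

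The low UMI count of the RNA-poor wells was not matched by an equally low spike-in count. Gene UMIs, which chose the wells, ranged from 1443 to 4841 in RNA-poor wells (median 2899) and from 20225 to 183391 in RNA-rich wells (median 38613). ERCC UMIs, which did not, ranged from 25 to 1430 in RNA-poor wells (median 415.5, interval 298 to 509) and from 95 to 1760 in RNA-rich wells (median 574, interval 483 to 796). The ranges of the spike-in overlapped almost throughout, and 2 RNA-poor wells and 1 RNA-rich well lay under 100 ERCC UMIs. Gene UMIs per ERCC UMI had a median of 6.87 in RNA-poor and 85.6 in RNA-rich wells. The ventricular-labelled wells with as few UMIs stood elsewhere: the 5 of them had a median of 54 ERCC UMIs (20 to 443) and of 47.4 gene UMIs per ERCC UMI. RNA-poor wells had a median of 3.50 reads per gene UMI and RNA-rich wells 7.25, while ERCC RNA had 20.95 reads per UMI in RNA-poor and 17.8 in RNA-rich wells.

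**Figure D1:**
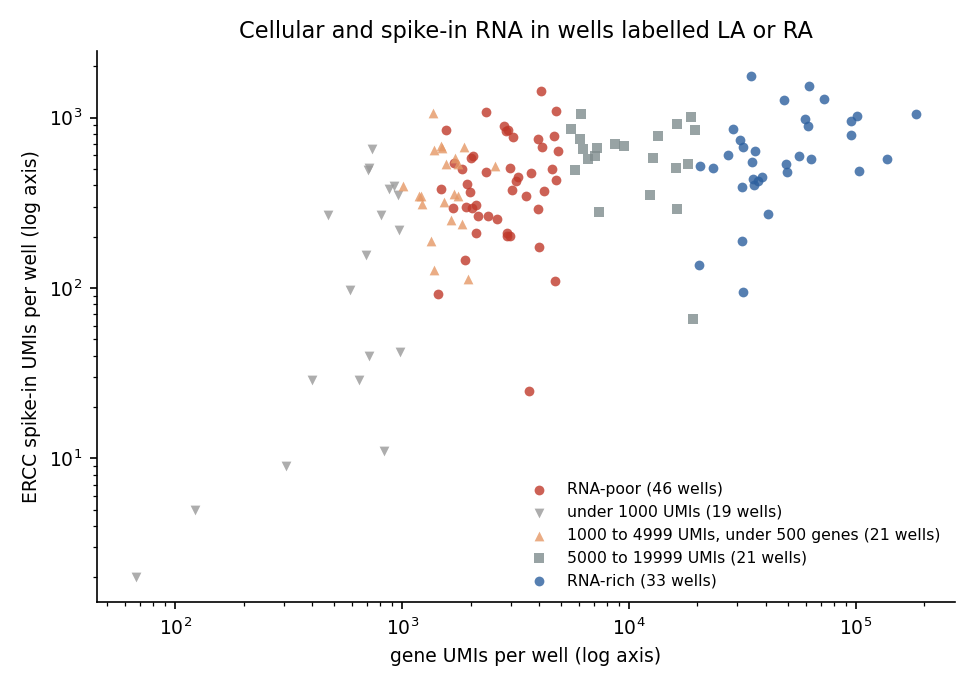
Each point is 1 well labelled LA or RA, with its gene UMIs on the horizontal and its ERCC spike-in UMIs on the vertical axis, both logarithmic, coloured by class. RNA-poor wells (median 415.5 ERCC UMIs) and RNA-rich wells (median 574) overlap in spike-in although they are set apart in gene UMIs.

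The 4 adult globin genes carried the main difference in composition. They are Hba-a1 (chromosome 11, 32283511 to 32284465, plus strand) and Hba-a2 (chromosome 11, 32296489 to 32297298, plus strand), which encode alpha-globin, and Hbb-bs (chromosome 7, 103826534 to 103828096, minus strand) and Hbb-bt (chromosome 7, 103812524 to 103813996, minus strand), which encode beta-globin, all in GRCm38. Each pair is nearly identical. The coding sequences of Hbb-bs and Hbb-bt, 441 bases without the stop codon, differ at 1 base (C417T, counted from the first base of the start codon, Hbb-bs first), and those of Hba-a1 and Hba-a2, 426 bases, at 1 base (C381T, Hba-a1 first). These stretches, taken from GENCODE M21 transcripts, are shown because coding reads can hardly be split between copies. For such reads the sum of the 4 genes is firmer than each gene. The bases after the stop codon, toward the tagged 3′ ends, were not compared. The differing base is in capitals. The stretches lie at chr7:103826668-103826722 and chr7:103812659-103812713 on the minus strand, and at chr11:32284313-32284373 and chr11:32297130-32297190 on the plus strand.
Hbb-bs: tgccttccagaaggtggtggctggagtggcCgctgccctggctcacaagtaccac
Hbb-bt: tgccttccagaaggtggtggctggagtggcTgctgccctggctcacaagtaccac
Hba-a1: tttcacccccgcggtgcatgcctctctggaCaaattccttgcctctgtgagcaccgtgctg
Hba-a2: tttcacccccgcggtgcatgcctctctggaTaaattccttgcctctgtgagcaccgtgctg

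Globin took 22.1% of nuclear-encoded UMIs in the RNA-poor pool and 1.28% in the RNA-rich pool, a 17.3-fold higher share (16.9 to 17.6). The nuclear-encoded total under this share is most of the gene UMI total that chose the wells. A well with the same globin UMIs and a lower total has a higher share, so the choice enters the size of this difference. Per well the share ran from 0.0815 to 59.7% in RNA-poor wells, with a median of 16.7% (interval 5.73 to 23.9%), and from 0.0406 to 11.3% in RNA-rich wells, with a median of 1.02% (interval 0.267 to 1.92%). The 2 groups overlapped, since RNA-poor wells included nearly globin-free ones. Globin exceeded 2% in 35 of 46 RNA-poor wells and 10 of 33 RNA-rich wells, and 10% in 29 of 46 RNA-poor wells and 1 of 33 RNA-rich wells. Hbb-bs was the most abundant nuclear gene in 22 of 46 RNA-poor wells and in 0 of 33 RNA-rich wells, where a count of 0 allows up to 10.6% (exact interval). It gave 0 to 912 UMIs a well in RNA-poor wells (median 128) and 8 to 920 in RNA-rich wells (median 143).

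The direction was the same under both labels and in every library, while the size was not. In LA wells globin made up 19.9% of the RNA-poor and 1.16% of the RNA-rich pool (17.2-fold), and in RA wells 23.7% of the RNA-poor and 1.55% of the RNA-rich pool (15.3-fold). By library, the share was 7.61 (A), 29.6 (B), 25.2 (C) and 9.72 times higher (D) in RNA-poor than in RNA-rich wells, and library D had a single RNA-rich well. The share was 11.0-fold higher with each well weighted equally, 8.72-fold with RNA-poor wells under 2500 UMIs only, and 42.8-fold in read counts, where PCR copies are not collapsed. The choice of wells also enters here through the minimum of 500 genes, which leaves out wells rich in globin. The 21 atrial-labelled wells under that minimum had a median globin share of 29.6%.

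**Figure D2:**
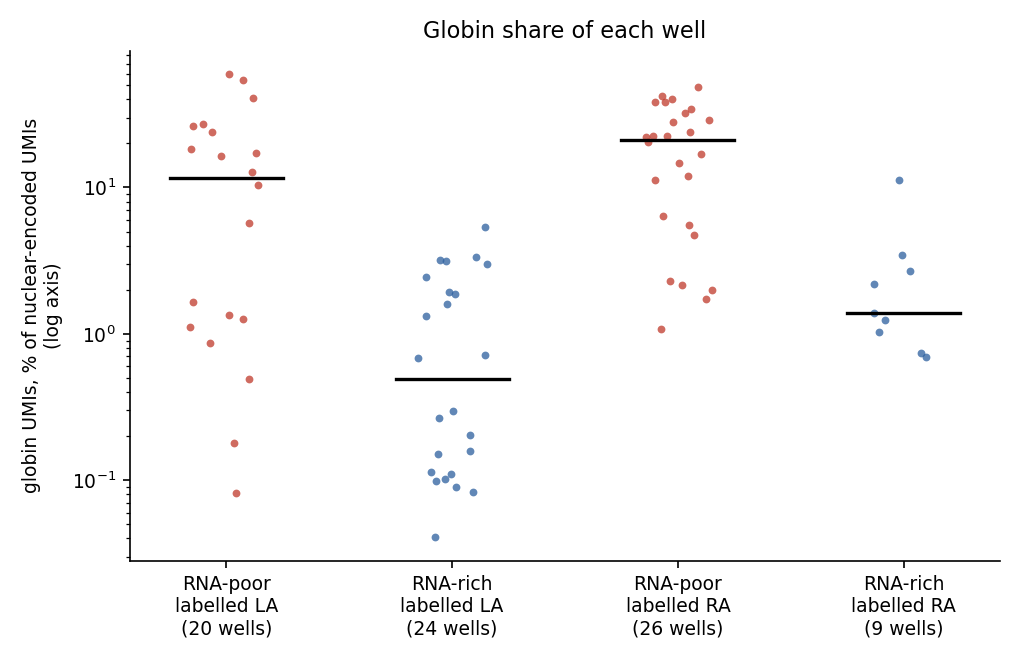
Globin UMIs as a percentage of nuclear-encoded UMIs (logarithmic axis) for each RNA-poor and RNA-rich well, by label; black bars are medians. RNA-poor wells reach 59.7% and RNA-rich wells 11.3%, and both groups hold wells with well under 1% globin.

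Counted per well rather than as a share, globin had close medians in the 2 groups, but not within every label and library. RNA-poor wells held 1 to 2294 globin UMIs, with a median of 305 (interval 92 to 486), and RNA-rich wells 18 to 1943, with a median of 317 (interval 63 to 574). Relative to the spike-in, RNA-poor wells had a median of 0.685 globin UMIs per ERCC UMI (interval 0.225 to 1.22) and RNA-rich wells 0.551 (interval 0.0828 to 0.914). By label, the median of globin UMIs per well was 160 in RNA-poor and 99.5 in RNA-rich LA wells, and 379.5 in RNA-poor and 491 in RNA-rich RA wells. By library it was 113 in RNA-poor and 491 in RNA-rich wells of A, 305 in RNA-poor and 97 in RNA-rich wells of B, 459 in RNA-poor and 515 in RNA-rich wells of C, and 864.5 in RNA-poor and 1071 in the single RNA-rich well of D. The ranges of globin per ERCC UMI, 0.00921 to 4.58 in RNA-poor and 0.0426 to 5.03 in RNA-rich wells, lay over each other. Summed over wells the ratio of RNA-poor to RNA-rich was 1.39 (1.36 to 1.42), but it was 1.64 in LA and 0.822 in RA wells, and 1.12, 2.69, 1.04 and 0.436 within libraries A to D. Its direction therefore did not hold. With RNA-poor wells under 2500 UMIs it was 0.506.

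All other large classes of RNA were many-fold lower against the same spike-in, as the choice by total UMIs makes them. Sarcomere UMIs per ERCC UMI had a median of 0.266 (0.0791 to 8.52) in RNA-poor and 3.56 (0.487 to 22.2) in RNA-rich wells, and were 16.8-fold lower in sum. The sum was 12.5-fold lower in LA and 31.6-fold lower in RA wells, 8.06, 13.6, 44.2 and 44.3-fold lower within libraries A to D, and 26.7-fold lower without library A. Mitochondrially encoded UMIs were 13.9-fold lower per ERCC UMI, nuclear-encoded genes of oxidative phosphorylation 19.7-fold (31.8-fold without library A), and the ventricular myocyte list 18.0-fold (28.1-fold without library A). Over the 100 atrial-labelled wells that were RNA-poor, RNA-rich or between, the rank correlation (Spearman's rho) of gene UMIs was 0.907 with sarcomere UMIs, 0.942 with mitochondrial UMIs and 0.216 with globin UMIs. For globin it was 0.178 in the 56 LA and 0.465 in the 44 RA wells. Gene UMIs contain each of these classes, and the wells share libraries, so these values are a description only.

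**Figure D3:**
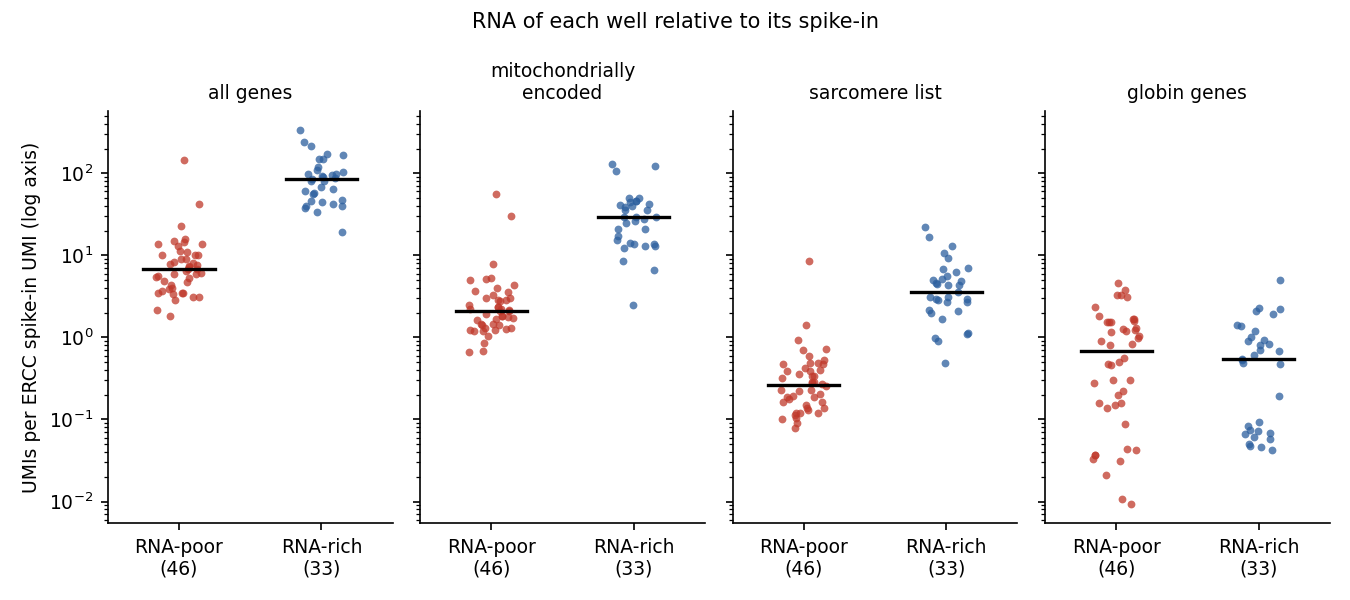
UMIs of all genes, mitochondrially encoded genes, sarcomere genes and globin genes per ERCC spike-in UMI (logarithmic axis) in each of the 46 RNA-poor and 33 RNA-rich wells; black bars are medians. All genes, mitochondrial and sarcomere RNA lie lower in RNA-poor wells (sarcomere medians 0.266 in RNA-poor and 3.56 in RNA-rich wells), while globin overlaps (medians 0.685 in RNA-poor and 0.551 in RNA-rich wells).

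Other red cell genes also made up a larger share in RNA-poor wells. Of 605 nuclear-encoded genes with a mean of at least 200 CPM over the 2 pools, 27 were at least 2-fold higher in RNA-poor wells (4.46%). Of these, 11 were red cell genes: all 4 globin genes and 7 of the 8 other red cell genes that passed the minimum, of 22 listed. These 7 lay at 20.6 (Alas2) to 132 CPM (Fech) in the RNA-rich pool and passed the minimum through the RNA-poor pool. The count of 7 of 8 is thus largely set by the minimum. Members under it went both ways, at log2 3.68 for Bnip3l and -0.91 for Urod. The whole list of 22 took 0.613% of the RNA-poor and 0.101% of the RNA-rich pool. Alas2, the enzyme that starts haem synthesis in red cells, had 538 CPM in the RNA-poor pool, from 17 wells, and 20.6 CPM in the RNA-rich pool, from 9 wells, a 26.1-fold difference (15.7 to 44.5). Slc25a37 (mitoferrin, which brings iron into mitochondria) was 15.9-fold higher, Bpgm (which makes bisphosphoglycerate, the regulator of oxygen release) 14.7-fold, and Mkrn1 (a ubiquitin ligase) 15.6-fold. Isg20, an exonuclease gene, was 14.5-fold higher, Tent5c, which encodes a poly(A) polymerase, 8.89-fold, and Fech, the last enzyme of haem synthesis, 3.57-fold. Ank1 (ankyrin), which muscle also expresses, had 231 CPM in RNA-poor and 246 CPM in RNA-rich wells. Slc4a1, the anion exchanger of the red cell membrane, lay under the minimum with 20 UMIs in RNA-poor and 4 in RNA-rich wells. Per ERCC UMI the whole list of other red cell genes stood at 0.0254 UMIs in RNA-poor and 0.0519 in RNA-rich wells, 2.05-fold lower.

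The mix of globin RNA was close in both groups, though not equal within counting error, while the other red cell genes differed among themselves. Hbb-bs took 44.6% of globin UMIs in RNA-poor (43.9 to 45.3) and 46.9% in RNA-rich wells (46.1 to 47.7). Hbb-bt took 10.5% in RNA-poor (10.1 to 11.0) and 9.15% in RNA-rich wells (8.69 to 9.63). Hba-a1 took 24.7% in RNA-poor and 24.3% in RNA-rich wells, and Hba-a2 20.1% in RNA-poor and 19.7% in RNA-rich wells, with overlapping intervals. Coding reads can hardly be split between copies, and the bases after the stop codon were not compared, so these shares are uncertain. Per 100 globin UMIs there were 0.244 Alas2 UMIs in RNA-poor wells (0.180 to 0.322) and 0.161 in RNA-rich wells (0.103 to 0.239). Bpgm gave 0.263 in RNA-poor wells (0.197 to 0.345) and 0.309 in RNA-rich wells (0.226 to 0.411). Mkrn1, Slc25a37 and Isg20 had overlapping intervals in the same way. The whole list of other red cell genes, part of which myocytes also express, gave 2.77 UMIs per 100 globin UMIs in RNA-poor and 7.89 in RNA-rich wells. Epb41, a membrane skeleton gene, gave 0.124 in RNA-poor wells (0.0805 to 0.183) and 0.751 in RNA-rich wells (0.619 to 0.903). Fech was also different, with 0.214 per 100 globin UMIs in RNA-poor and 1.03 in RNA-rich wells, and so was Tent5c, with 0.363 in RNA-poor and 0.704 in RNA-rich wells.

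The stretches before the first exon of Hbb-bs, Hba-a1 and Alas2 are shown because these genes were among the highest ratios. GATA1, the transcription factor that drives red cell genes, binds motifs that hold the letters GATAA, which are in capitals below. On the opposite strand they read TTATC. The stretches come from RefSeq promoter entries (GRCm38.p6), cut where the first GENCODE exon begins, at chr7:103828097-103828178 (minus strand), chr11:32283422-32283510 (plus strand) and chrX:150547167-150547374 (plus strand).
Hbb-bs: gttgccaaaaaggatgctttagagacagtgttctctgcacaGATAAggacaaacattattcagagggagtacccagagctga
Hba-a1: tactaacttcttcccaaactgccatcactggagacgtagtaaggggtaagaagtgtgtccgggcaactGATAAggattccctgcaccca
Alas2: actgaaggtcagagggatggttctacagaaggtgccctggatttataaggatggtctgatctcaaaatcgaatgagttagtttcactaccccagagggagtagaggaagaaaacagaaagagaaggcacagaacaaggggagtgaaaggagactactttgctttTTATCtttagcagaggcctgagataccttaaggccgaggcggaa
In the 250 bases before the RefSeq start, 5 of the 9 red cell genes called higher that had an entry held the motif on either strand (the 4 globin genes and Alas2), against 22.6% of all 32851 promoters. In Mkrn1, Bpgm, Isg20 and Tent5c these letters were not in this window. The 9 genes were picked by their calls in these data, and the 4 globin genes form nearly identical pairs. They are thus not independent, and no enrichment of the motif can be read from this count.

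**Figure D4:**
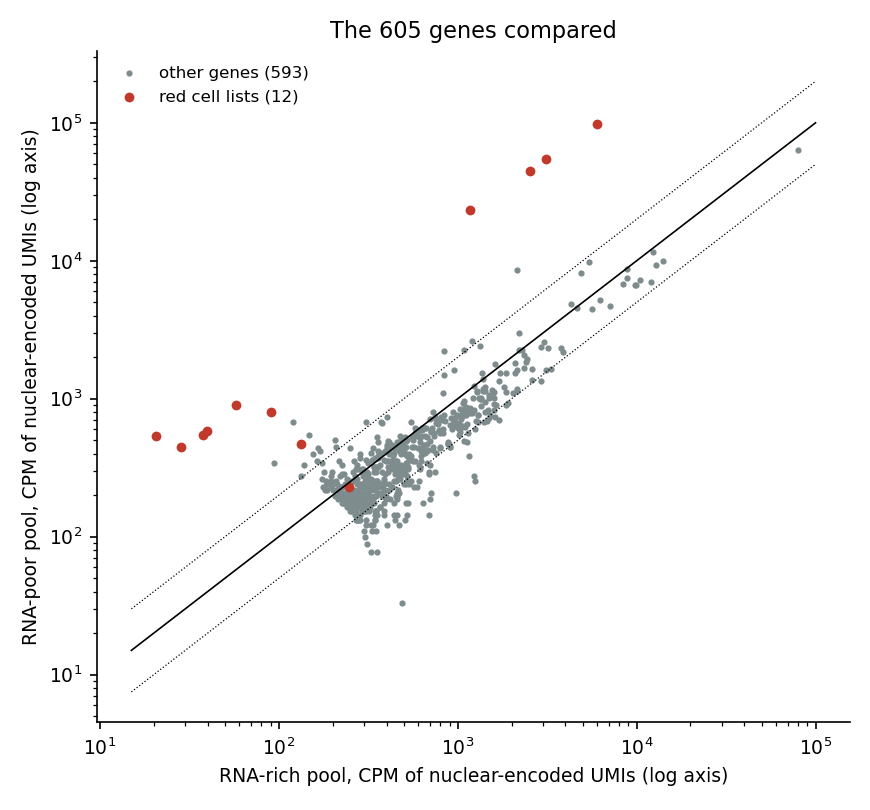
Pooled CPM of the 605 genes compared, RNA-poor pool on the vertical and RNA-rich pool on the horizontal axis (both logarithmic); the solid line marks equality and the dotted lines a 2-fold difference. The red cell genes (red) stand above the cloud, led by Hbb-bs at 98578 CPM in RNA-poor and 6003 CPM in RNA-rich wells.

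Other blood cells left few UMIs. Platelet genes gave 6 UMIs in RNA-poor and 3 in RNA-rich wells, and since the RNA-poor pool is far smaller this is a 25.6-fold higher share (5.46 to 158). These UMIs came from 3 RNA-poor wells, of which 1 held 66.7%, and from 1 RNA-rich well, so the value rests on very few wells. Neutrophil genes gave 3 UMIs in RNA-poor and 2 in RNA-rich wells, a 19.2-fold higher share (2.20 to 230). B cell genes gave 3 UMIs in RNA-poor and 26 in RNA-rich wells (1.48-fold, 0.286 to 4.81), and macrophage genes 3 in RNA-poor and 18 in RNA-rich wells (2.13-fold, 0.402 to 7.30). T and NK cell genes gave 0 UMIs in RNA-poor and 4 in RNA-rich wells, Schwann cell genes 0 in RNA-poor and 7 in RNA-rich wells, and adipocyte genes none in either. Endothelial genes, of vessel linings, took 0.0516% of the RNA-poor and 0.0466% of the RNA-rich pool, endocardial genes 0.0143% of the RNA-poor and 0.00558% of the RNA-rich pool, and mural genes (pericytes and smooth muscle) 0.0121% of the RNA-poor and 0.0148% of the RNA-rich pool. Fibroblast genes took 0.0318% of the RNA-poor and 0.0642% of the RNA-rich pool, with Dcn (decorin) at 231 CPM in RNA-poor and 359 CPM in RNA-rich wells. Mesothelial genes, of the heart's outer lining, took 0.0384% of the RNA-poor and 0.152% of the RNA-rich pool. Of 9 listed, 3 passed the minimum, and these 3 were called lower, against 14.9% of all genes. Upk3b had 143 CPM in RNA-poor and 455 CPM in RNA-rich wells. Msln (mesothelin) had 121 CPM in RNA-poor and 467 CPM in RNA-rich wells, and Muc16 87.8 CPM in RNA-poor and 313 CPM in RNA-rich wells. These genes passed the minimum through the RNA-rich pool, so the count of 3 of 3 is largely set by the minimum. Most of the mesothelial UMIs came from the wells named above. Without these 3 wells the log2 ratio of RNA-poor to RNA-rich was 0.41 instead of -1.98 for the mesothelial share, 1.18 instead of -1.01 for the fibroblast share, and 1.33 instead of 0.15 for the endothelial share, which was -0.60 without library A.

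Genes lower in RNA-poor wells numbered 90 of 605 (14.9%). Shares sum to a whole, so a large globin share lowers all others, and the median log2 ratio of all genes was -0.46. With globin left out of the total the median was -0.12, 39 genes were higher (6.45%) and 32 lower (5.29%). Of all calls, 54.9% were then higher, against 23.1% with globin in the total. List medians below are log2 ratios of RNA-poor to RNA-rich with the nuclear-encoded total and then with globin left out, to be read against these 2 medians. The 601 other genes had a Pearson correlation of 0.826 between the pools on the log2(CPM + 10) scale, across genes that are not independent.

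Contractile RNA was close to its share in RNA-rich wells once globin was set aside. Sarcomere genes took 5.94% of the RNA-poor and 8.03% of the RNA-rich pool (0.740 times, 0.720 to 0.760). With globin left out they took 7.62% of the RNA-poor and 8.13% of the RNA-rich pool (0.937 times, 0.912 to 0.963), and the ratio was 0.832 when the 3 mesothelial-rich wells were also left out. Within labels the globin-free ratio was 1.03 in LA and 0.760 in RA wells, and within libraries A to D 0.960, 1.07, 0.767 and 0.688. Of 19 sarcomere genes past the minimum, 0 were higher and 1 was lower, with a median of -0.57, or -0.23 without globin. Ttn (titin, the molecular spring) had 11618 CPM in RNA-poor and 12393 CPM in RNA-rich wells, Tpm1 (tropomyosin) 9883 CPM in RNA-poor and 14027 CPM in RNA-rich wells, and Tnnt2 (cardiac troponin T) 9345 CPM in RNA-poor and 12867 CPM in RNA-rich wells. Lmod2 (leiomodin, which lengthens thin filaments) was the one called, 2.01-fold lower, or 1.59-fold with globin left out, where none of the 19 was called. Ttn was found in 46 of 46 RNA-poor wells (5 to 48 UMIs, median 20) and 33 of 33 RNA-rich wells (40 to 2815, median 315).

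Of the ventricular myocyte genes, 5 of 9 passed the minimum and 0 were called, with a median of -0.53, or -0.19 without globin. Myl2 had 7237 CPM in RNA-poor and 10484 CPM in RNA-rich wells, and Myl3, the essential light chain, 6699 CPM in RNA-poor and 9788 CPM in RNA-rich wells. Myh7 (beta myosin heavy chain) had 275 CPM in RNA-poor and 473 CPM in RNA-rich wells, Fhl2 (a LIM domain protein) 1120 CPM in RNA-poor and 1591 CPM in RNA-rich wells, and Pln (phospholamban, the brake of the calcium pump) 758 CPM in RNA-poor and 989 CPM in RNA-rich wells. Irx3, Irx4, Irx5 and Hey2, transcription factor genes, gave 0 to 1 UMI each in RNA-poor and 6 to 23 in RNA-rich wells. Calcium-handling genes had a median of -0.41, or -0.072 without globin, with 0 of 9 called. Atp2a2 (the calcium pump) had 4469 CPM in RNA-poor and 5651 CPM in RNA-rich wells, Ryr2 (the calcium release channel) 1944 CPM in RNA-poor and 2425 CPM in RNA-rich wells, and Cacna1c (the L-type channel) 999 CPM in RNA-poor and 1331 CPM in RNA-rich wells. Jph2 (junctophilin, which ties the channel membranes together) had 165 CPM in RNA-poor and 270 CPM in RNA-rich wells.

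Metabolic genes were uneven. Creatine and myoglobin genes lay lowest of the myocyte lists, with a median of -1.22, or -0.87 without globin. Of 3 genes past the minimum 2 were called lower (66.7%, against 14.9% of all genes). Without globin 1 of 3 was lower, Ckm (33.3%, against 5.29% of all genes). With 3 genes, these shares rest on single members. Ckm, the muscle creatine kinase (chromosome 7, 19404776 to 19422841, plus strand), had 19 UMIs in RNA-poor and 1138 in RNA-rich wells, or 209 CPM in RNA-poor and 977 CPM in RNA-rich wells, a 4.68-fold lower level (2.99 to 7.81). Mb (myoglobin, the oxygen store) was 2.32-fold lower (1.83-fold without globin), and Ckmt2, the mitochondrial creatine kinase, had 769 CPM in RNA-poor and 1301 CPM in RNA-rich wells. Of 28 nuclear-encoded genes of oxidative phosphorylation, 6 were lower (21.4%, against 14.9% of all genes) and 0 higher, with a median of -0.68, or -0.33 without globin. With globin left out of the total 2 of 28 were lower (7.14%, against 5.29% of all genes), so the share was near that of all genes. Cox8b, a subunit of cytochrome oxidase, was 3.03-fold lower (2.16 to 4.36). Cox6a2, another subunit, had 2185 CPM in RNA-poor and 3885 CPM in RNA-rich wells, Atp5b (ATP synthase beta) 2317 CPM in RNA-poor and 3195 CPM in RNA-rich wells, and Atp5a1 (ATP synthase alpha) 2372 CPM in RNA-poor and 2910 CPM in RNA-rich wells.

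Fatty acid oxidation had a median of -0.34, or 0.0058 without globin, with 1 of 16 lower (Eci1, 2.32-fold, or 1.83-fold and not called without globin). Lpl (lipoprotein lipase) had 1636 CPM in RNA-poor and 2590 CPM in RNA-rich wells, Fabp3 (the fatty acid carrier) 1362 CPM in RNA-poor and 2590 CPM in RNA-rich wells, and Ech1 1142 CPM in RNA-poor and 1390 CPM in RNA-rich wells. Glycolysis had a median of -0.47, or -0.13 without globin, with 0 of 8 called. Aldoa (aldolase) stood at 2086 CPM in RNA-poor and 2337 CPM in RNA-rich wells, Eno3 (enolase) at 1164 CPM in RNA-poor and 1555 CPM in RNA-rich wells, and Gapdh at 692 CPM in RNA-poor and 1265 CPM in RNA-rich wells.

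Measures often read for damaged cells were lower or without a steady direction. Mitochondrially encoded RNA made up 32.99% of gene UMIs in the RNA-poor and 35.5% in the RNA-rich pool (0.929 times, 0.920 to 0.938). Per well it ran from 15.0 to 70.6% in RNA-poor wells (median 34.5%, interval 30.6 to 36.0) and from 3.60 to 73.3% in RNA-rich wells (median 36.0%, interval 31.3 to 41.8). With globin left out of the total, the listed mitochondrial genes took 38.7% of the RNA-poor and 35.8% of the RNA-rich pool, 1.08 times (1.07 to 1.09), so the direction turned with the total. It was 0.859 times without the 3 mesothelial-rich wells, 1.01 times with RNA-poor wells under 2500 UMIs and 1.06 times within library D. In the 5 ventricular-labelled wells with as few UMIs the median was 49.2%. Nuclear-retained RNA had a median of -0.78, or -0.44 without globin: Malat1 (chromosome 19, 5795690 to 5802672, minus strand) had 1636 CPM in RNA-poor and 3306 CPM in RNA-rich wells, 2.02-fold lower (1.72 to 2.40), or 1.59-fold and not called with globin left out, and Neat1 had 318 CPM in RNA-poor and 465 CPM in RNA-rich wells.

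Of 5 immediate-early genes past the minimum 0 were called, with a median of -0.36, or -0.022 without globin. With the nuclear-encoded total their log2 ratios ran from -0.94 to 0.28, so not all of the 5 were lower. Jun stood at 417 CPM in RNA-poor and 496 CPM in RNA-rich wells, Fos at 198 CPM in RNA-poor and 313 CPM in RNA-rich wells, Atf3 at 198 CPM in RNA-poor and 254 CPM in RNA-rich wells, and Btg2 at 154 CPM in RNA-poor and 295 CPM in RNA-rich wells. The immediate-early share differed in direction between labels, at log2 0.088 in LA and -0.88 in RA wells. Heat shock genes had a median of -0.47, or -0.13 without globin, and 1 of 5 was lower, Hsp90aa1 (2.08-fold, or 1.64-fold and not called without globin). Cryab, a small chaperone of muscle, had 1680 CPM in RNA-poor and 2335 CPM in RNA-rich wells, Hspb1 527 CPM in RNA-poor and 675 CPM in RNA-rich wells, and Hspa8 340 CPM in RNA-poor and 521 CPM in RNA-rich wells. Of the stretch response genes, Xirp2 had 615 CPM in RNA-poor and 717 CPM in RNA-rich wells and Ankrd1 450 CPM in RNA-poor and 557 CPM in RNA-rich wells. No gene of the cell stress and p53 list passed the minimum, and the list took 0.0329% of the RNA-poor and 0.0438% of the RNA-rich pool.

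Cytosolic ribosomal protein genes were a large family among the lower calls. Of 24 listed genes past the minimum 7 were lower (29.2%, against 14.9% of all genes) and 0 higher, with a median of -0.64, or -0.30 without globin, and over all genes with such symbols 17 of 48 were lower (35.4%). With globin left out of the total, 3 of 24 listed genes were lower (12.5%) and 7 of 48 by symbol (14.6%), against 5.29% of all genes. Rps29 (chromosome 12, 69157722 to 69159186, minus strand) was 3.67-fold lower (2.13 to 6.93), Rpl37a 3.40-fold, Rpl37 3.35-fold and Rps26 3.10-fold, each from 11 to 13 UMIs in the RNA-poor pool. The abundant Rps2 stood at 857 CPM in RNA-poor and 1169 CPM in RNA-rich wells, Rplp0 at 835 CPM in RNA-poor and 1128 CPM in RNA-rich wells and Rplp1 at 670 CPM in RNA-poor and 1011 CPM in RNA-rich wells. Ribosomal protein genes have many processed copies in the genome among which reads can be split, so single values are uncertain.

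Among the remaining genes with the most extreme ratios, Pabpc1, the poly(A)-binding protein, was 5.70-fold higher (4.16 to 7.75). Mir99ahg, the host gene of a microRNA cluster, was 3.999-fold higher (3.69 to 4.34), with UMIs in all 46 RNA-poor and all 33 RNA-rich wells. It was also higher in the RNA-poor wells with a ventricular label, at 25218 CPM against 5646 CPM in the RNA-rich ones. Atrial-labelled wells under 1000 UMIs had 15558 CPM. Serbp1, which encodes an mRNA-binding protein, was 4.63-fold lower (2.23 to 11.6) on 7 UMIs, and Ncl (nucleolin) 3.06-fold on 9 UMIs. Zfp251, a zinc finger gene, was 3.62-fold lower. Gpx3, an extracellular glutathione peroxidase, was 3.77-fold lower, but 1 well held 47.2% of its UMIs in the RNA-rich pool. Its log2 ratio was -2.18 in LA and -0.24 in RA wells, and -0.0082, -1.70 and -1.49 within libraries A, B and C. Crip1 was 3.38-fold and the mesothelial Upk3b 3.19-fold lower, but within RA wells both were higher (log2 3.33 and 3.24), and 1 well held 49.0% and 49.6% of their UMIs in the RNA-rich pool. 6 of the 27 higher and 5 of the 90 lower genes were predicted genes. The share of predicted genes among all 605 is not given here, so no excess can be read from these counts. Of the calls, 25 of 27 higher and 78 of 90 lower genes had the same sign in LA and RA wells. The calls were made on the pool of these same wells, so this agreement is in part built in and is no replication. Without library A, 148 genes were lower.

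**Figure D5:**
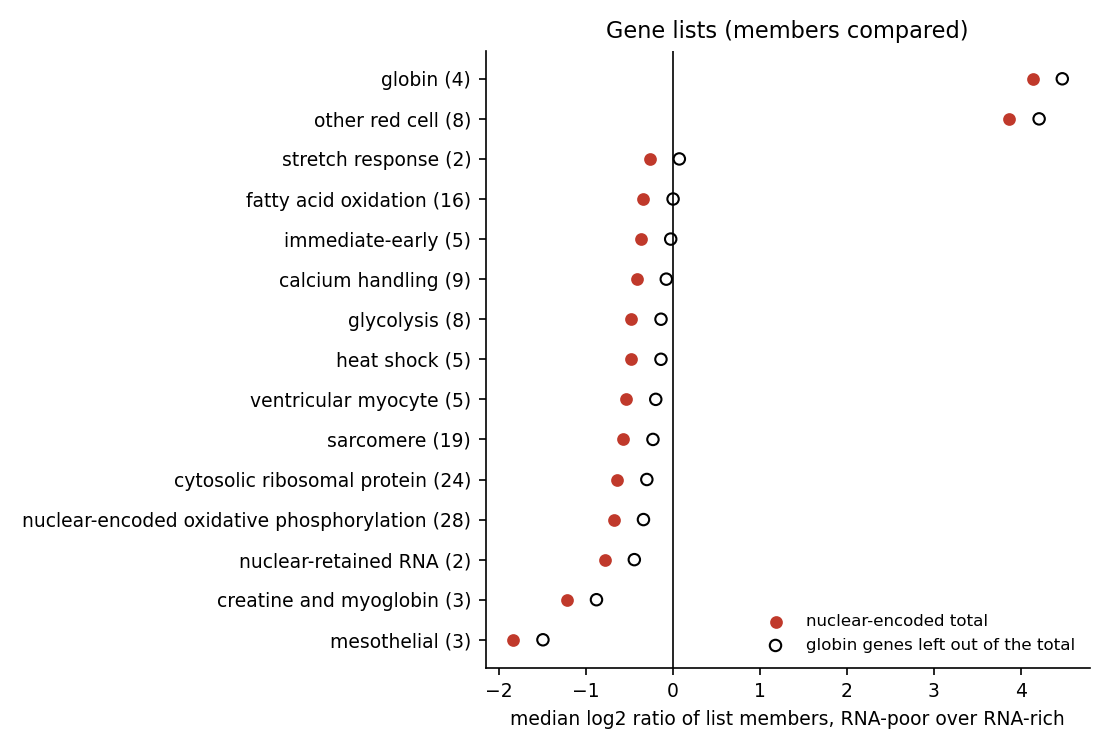
Median log2 ratio, RNA-poor over RNA-rich, of the genes of each list that passed the minimum (number in brackets), with the nuclear-encoded total (filled) and with globin left out of the total (open). The 2 red cell lists lie near 4, and the others lie between -1.83 (mesothelial) and 0.078 (stretch response, open symbol).

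The RNA-poor wells held 507 to 1415 genes (median 707), against 970 to 8744 (median 4137) in RNA-rich wells, and this number follows depth. At an even 1000 UMIs per well, which every well of both groups reaches, the expected number had a median of 371 (interval 338 to 399) in RNA-poor and 424 (interval 397 to 464) in RNA-rich wells. With globin left out it was 401 (interval 384 to 421) in RNA-poor and 424 (interval 399 to 464) in RNA-rich wells. At the edges of the choice, the 3 RNA-poor wells with the fewest UMIs had 0.0815, 0.866 and 11.96% globin, and the 3 wells just under 1000 UMIs had 6.79, 1.40 and 0.723%. The 3 RNA-poor wells with the most UMIs had 42.3, 14.8 and 28.99% globin, and the next 3 wells above 5000 UMIs 10.4, 0.618 and 0.797%. The 3 RNA-rich wells with the fewest UMIs had 0.698, 2.17 and 2.70%, and the 3 wells just under 20000 UMIs 0.950, 1.30 and 5.06%. The part that free RNA, whole red cells or damaged myocytes have in these values was not tested.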

How the data were processed

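The authors deposited, for the multichamber study, tables of UMI counts and read counts per gene and cell barcode, not normalized, with per-well labels of chamber and library. Per the submitters' processing notes, the tools included STAR 2.5.4b and featureCounts, and the build was GRCm38. How UMIs were collapsed, and the annotation and strand setting, is not given in the sources used here, which leaves reads of overlapping or antisense genes unseparated. Of 24522 gene IDs, 24489 matched a symbol of GENCODE M21, which gave coordinates. 21 barcode columns without a label were not used. Totals recomputed from the UMI counts equalled the deposited totals in all 332 wells, and 56 ERCC features were kept apart. The second study was not used here.

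UMI counts of each group's wells were added up and divided by their nuclear-encoded total to give CPM, where 1 UMI equals 11.0 CPM in the RNA-poor and 0.859 CPM in the RNA-rich pool. Genes with a mean of at least 200 CPM over both pools were compared, with a count of 0 set to 3 counts. Intervals are exact Clopper-Pearson intervals, and those of medians come from order statistics. Depth was evened by computing the expected number of genes at 1000 UMIs. No doublet caller was run, since wells were filled by sorting. The computation was tested on simulated Poisson counts.

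The text names the 12 highest and 12 lowest ratios among genes in which no well gave over 50% of the UMIs of the higher pool, all globin, ventricular and atrial genes, and from each other of the 29 lists the 3 most abundant members past the minimum plus 1 member, that of largest ratio either way. Slc4a1, Ank1, Fech, Epb41, Bnip3l, Urod and the genes of the last section were named after their values were seen. The members, lists and rule were chosen with earlier results of these data known. Alternatives were each label and library, equal weight per well, read counts, other bounds, totals (edgeR TMM factors and median-of-ratios), filters and a pseudocount of 5 CPM. Leaving out mesothelial-rich wells, adding wells under 500 genes, leaving out libraries for the other classes per ERCC UMI, and list calls without globin were chosen after the values were seen. Software: edgeR 4.0.16 under R 4.3.3; Python 3.11.15 with scipy 1.17.1, pandas 2.3.3, numpy 2.4.6 and, for figures, matplotlib 3.10.9.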

Additional observations from a re-analysis of the deposited data

Results flagged for a closer look

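Wells outside the comparison also carried globin above the level of the RNA-rich wells. In the 21 atrial-labelled wells with 1000 to under 5000 UMIs and fewer than 500 genes, globin took 34.8% of the pooled nuclear-encoded UMIs, with a median of 319 globin UMIs a well, and in the 19 wells under 1000 UMIs it took 15.5%, with a median of 8 globin UMIs a well, against 1.28% in the RNA-rich pool.

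Mesothelial and fibroblast RNA differed in opposite directions under the 2 labels. The log2 ratio of the mesothelial share, RNA-poor over RNA-rich, was -4.38 in LA and 2.12 in RA wells, and that of the fibroblast share -2.08 in LA and 1.47 in RA wells. The difference between the labels was not tested, and the labels were spread unevenly over libraries. RNA-rich LA wells numbered 7, 13, 3 and 1 in libraries A to D, and RNA-rich RA wells 2, 2 and 5 in A to C. 1 RA well held 23 of the 35 mesothelial UMIs of the RNA-poor pool, and 2 LA wells held 1043 and 617 of the 1764 of the RNA-rich pool.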

How the results depend on the processing

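The globin share stayed higher in RNA-poor wells under every alternative run, from 8.72 to 42.8 times, and was 7.61 times higher within library A alone. Every alternative kept a choice by gene UMIs, which hold the denominator of the share. These runs therefore cannot separate a higher share from the low totals that were chosen. Other results moved beyond their counting interval or, for counts of genes, by over 1.5 times. In the following, values are RNA-poor over RNA-rich for the globin share, the mitochondrial share, the sarcomere share and globin per ERCC UMI, in this order, then genes higher and lower. With LA wells only, the mitochondrial share was 0.969, the sarcomere share 0.835, globin per ERCC UMI 1.64, and 46 genes were higher. With RA wells only they were 15.3, 0.897, 0.588 and 0.822, which turns the direction of the last, and 154 genes were lower. With each library left out in turn the ranges were 13.8 to 25.8, 0.901 to 0.948, 0.644 to 0.809 and 1.11 to 1.53, with 27 to 38 genes higher and 75 to 148 lower. Equal weight per well gave 11.0 for globin, 0.767 for sarcomere and 1.24 for globin per ERCC. Read counts gave 42.8, 0.982, 0.356 and 1.20, with 212 genes higher and 325 lower. RNA-poor wells under 2500 UMIs gave 8.72, 1.01, 0.845 and 0.506, with 92 genes higher; the mitochondrial value and globin per ERCC turned. RNA-rich wells of at least 40000 UMIs gave 19.1 for globin, 0.975 for mitochondrial and 1.24 for globin per ERCC. All gene UMIs as the total gave 17.9 for globin and 0.768 for sarcomere. Globin left out of the total gave 0.937 for sarcomere and 32 genes lower.

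A minimum of 100 CPM gave 75 genes higher and 224 lower of 1261, and 500 CPM gave 8 and 22 of 221. No minimum gave 2423 and 1628 of 17403, where 1 UMI of the RNA-poor pool is 11.0 CPM. Without wells over 0.5% mesothelial RNA the values were 15.2, 0.859, 0.655 and 1.35, and with globin also out of the total 0.832 for sarcomere, 41 genes higher and 25 lower. With wells under 500 genes included they were 19.3 for globin, 0.913 for mitochondrial and 0.709 for sarcomere.

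Among 14 gene lists, 93 values of the share stayed within the counting interval, 95 moved beyond it, and 8 turned. The cause of these shifts was not tested. The 8 were log2 2.12, 0.41 and 0.75 for mesothelial and 1.47, 1.18 and 1.52 for fibroblast (RA wells only, mesothelial-rich wells out, and these with globin out of the total), and 0.088 (LA wells) and 0.30 (RNA-poor wells under 2500 UMIs) for immediate-early. No paired analysis was possible because wells carry no animal or replicate number. The main limits are that no animal is named, that library D gave 1 RNA-rich well, and that 3 counts in the RNA-poor pool equal 32.9 CPM, so that levels near or under it rest on at most a few UMIs there.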

Other observations

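Other genes at least 2-fold higher in RNA-poor wells, named after their values were seen, included Gpx1, a glutathione peroxidase that red cells hold in quantity (549 CPM in RNA-poor and 147 CPM in RNA-rich wells), Cat, catalase (329 CPM in RNA-poor and 139 CPM in RNA-rich wells), and Slc25a39, a mitochondrial carrier (417 CPM in RNA-poor and 170 CPM in RNA-rich wells). Gpx1 differed in direction between labels, at log2 -1.74 in LA and 3.32 in RA wells, which was not tested. Per 100 globin UMIs, Gpx1 gave 0.249 UMIs in RNA-poor and 1.15 in RNA-rich wells.

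Genes outside the red cell lists differed with the length of their longest annotated transcript. Of 4 equal bins, the shortest genes (up to 1304 bases) had a median log2 ratio of -0.64 and 37 of 148 genes at least 2-fold lower. The longer bins, in order of length, had medians of -0.43, -0.45 and -0.35 with 13, 19 and 21 of 148 lower. Of all 605 genes 14.9% were lower. These calls used the nuclear-encoded total. With globin left out of the total the 4 medians, from the shortest bin up, were -0.30, -0.091, -0.11 and -0.0044. Many ribosomal protein and oxidative phosphorylation genes are short, so length and gene family cannot be told apart here.

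The 21 atrial-labelled wells between the groups, with 5528 to 19526 UMIs, had a median globin share of 5.06% and a median of 362 globin UMIs a well, and globin took 8.95% of their pool.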
